A study of Mus musculus with 8 samples.

Results

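The protein genes of the cytosolic ribosome were described in mouse lung that lacks all nitric oxide synthases and in wild type lung. Members were the gene symbols made of Rpl or Rps, a number and at most 1 further letter, without names of pseudogenes, plus Rplp0, Rplp1, Rplp2 and Rpsa, and without Rpl29. This gave 77 of the 15728 listed genes, 45 of the large 60S subunit and 32 of the small 40S subunit. Measurements came from cap analysis of gene expression (CAGE), which captures RNA by its 5′ cap and counts reads from transcription start sites. The values are CPM, reads of a gene scaled to the same library total, so a level here is a share of each library's capped RNA.

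The wild type group held 4 C57BL/6J mice. The knockout group held 4 triply n/i/eNOSs-/- mice on the C57BL/6J background, which lack the neuronal, the inducible and the endothelial enzyme that make nitric oxide. All 8 mice were 4 weeks old and unexposed, and whole lung tissue was used, which mixes epithelial, endothelial, stromal and blood cells. With a bulk tissue, fewer cells of a type and less RNA per cell cannot be told apart. The labels name no litter, sex or batch, and whether the 4 libraries of a genotype shared a cage or a litter is not known.

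A ribosome is built from ribosomal RNA and about as many different proteins as there are genes here, which nearly every cell makes in matched amounts. Ribosomal protein mRNAs are short and abundant, and most begin with a cytosine and a run of pyrimidines, the 5′ terminal oligopyrimidine (TOP) tract. Through this tract the kinase complex mTORC1 and the RNA-binding protein LARP1 control their translation and storage. These genes also have many processed pseudogenes, copies of the mRNA inserted elsewhere in the genome, some of which can take or lend reads.

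Library totals ran from 13014134 to 18593913 reads, every knockout library holding fewer reads than any wild type library. A count of 3 reads, the lowest amount treated as detected, corresponded to 0.161 to 0.231 CPM, and this limit covers counting error only. Lung markers were high in every library: the type 2 cell surfactant gene Sftpb was at 1016 to 1437 CPM, the club cell gene Scgb1a1 at 75056 to 103153 CPM, the type 1 cell gene Ager at 1015 to 1146 CPM, and the endothelial genes Cldn5 and Pecam1 at 432 to 555 CPM and 244 to 315 CPM. Sftpc, also of type 2 cells, was at 66885 to 82563 CPM in wild type against 35921 to 47667 CPM in the knockout, a change large enough to move the share left for all other genes. Nos3, the endothelial synthase, was at 18.2 to 22.8 CPM in wild type against 5.56 to 8.83 CPM in the knockout. Whether its counted start lies in the deleted part was not analysed here.

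More ribosomal protein genes were called higher than lower in the knockout, most of them by small amounts. Of 76 members tested, 29 were higher in the knockout, 7 were lower and 40 did not pass the threshold (limma on log2(CPM + 0.5), Benjamini-Hochberg adjusted p under 0.05 over 14065 genes). Among all genes tested, 16.6% were called higher and 14.3% lower, against 38.2% and 9.21% of the members. The median log2 fold change of the members was 0.13, and that of all genes 0.01. The called rises ran from 1.14-fold to 1.7-fold with a median of 1.26-fold, and the called falls from 1.14-fold to 11.22-fold with a median of 1.19-fold. In 37 members (48.7%) the 4 knockout values did not overlap the 4 wild type values, against 31.2% of all genes tested. The p-values measure the spread between these mice only.

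**Figure D1:**
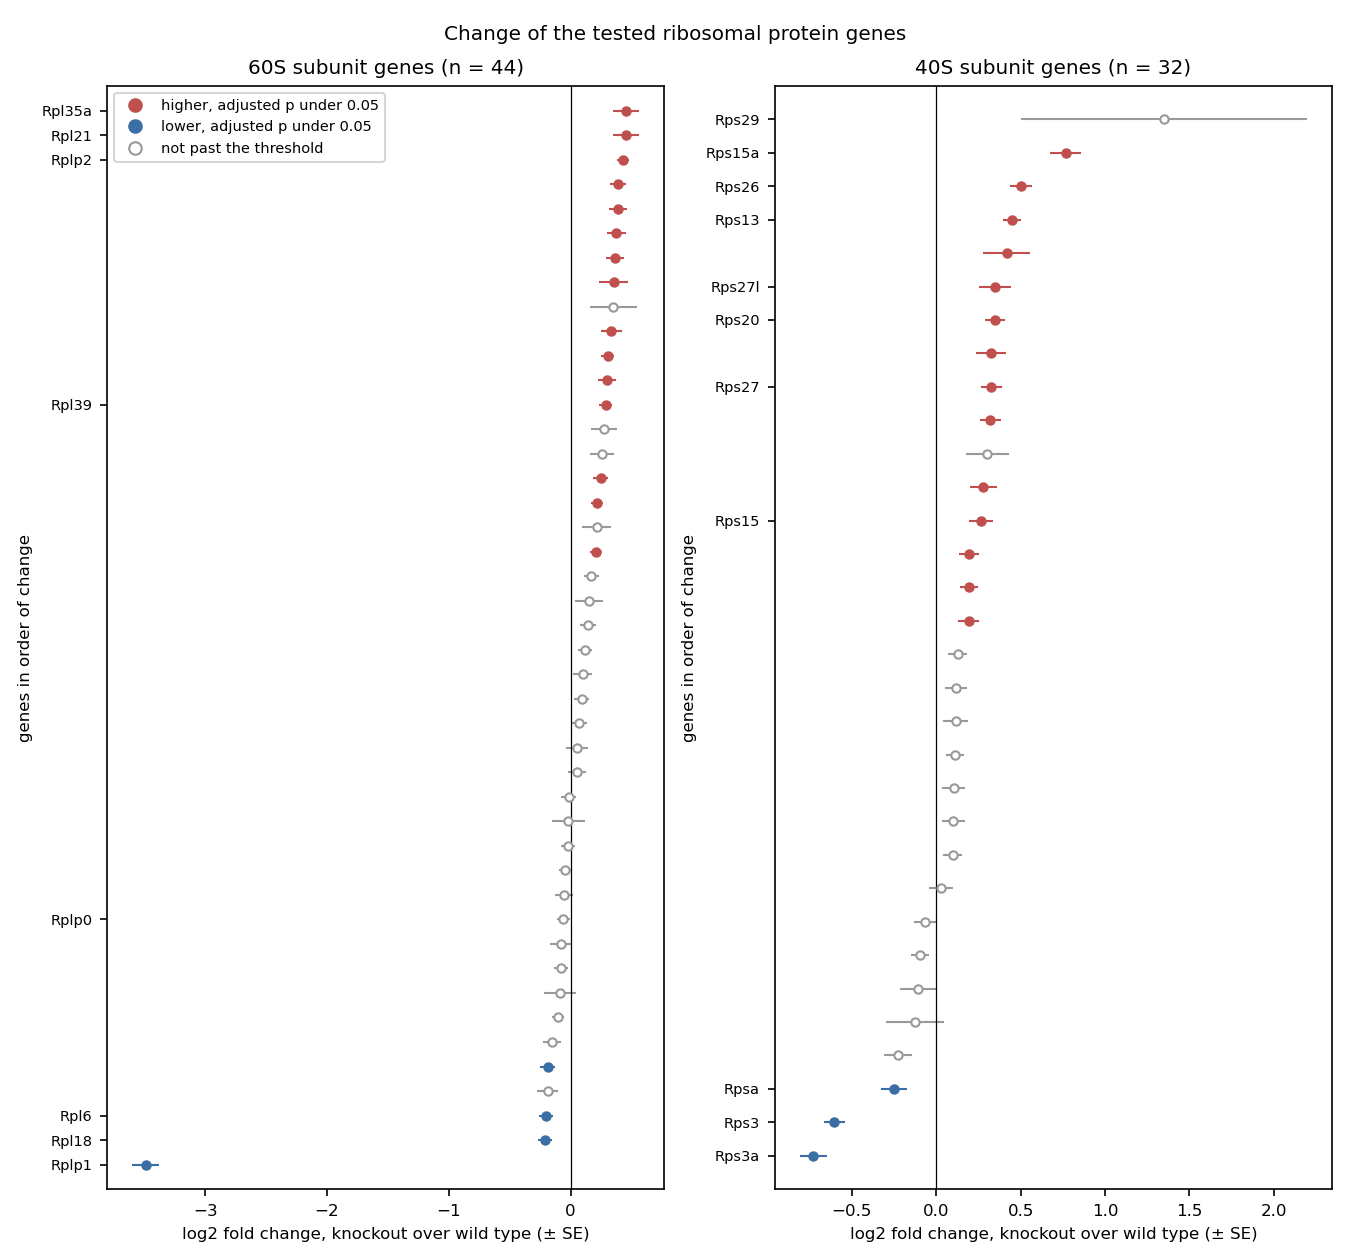
Each point is 1 of the 76 tested members, in order of change, in separate panels for the 60S and 40S subunits. Members with values given in every library are named, apart from Rps6 and Rps12. The horizontal axis gives the log2 fold change (knockout over wild type), with a bar of 1 SE. Filled points passed the threshold. Most sit between 0 and 0.5, Rplp1 stands alone at -3.49, and Rps29 has by far the widest bar.

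Of 44 tested 60S genes, 15 were higher (34.1%) and 4 lower (9.09%), with a median log2 fold change of 0.13. Of 32 tested 40S genes, 14 were higher (43.8%) and 3 lower (9.38%), with a median of 0.16. In both subunits the share called higher was above, and the share called lower below, that of all genes (16.6% and 14.3%). Calls of 20 of the 36 called members, 17 higher and 3 lower, kept their side of the threshold under all 21 alternative settings tried, though the direction of 1 of them, Rplp1, turned when copies were summed. The other 16 lost the call under at least 1 setting. Libraries mattered most for the lower calls, of which 3 were left without wild type replicate 1 and 4 without wild type replicate 2.

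Quantile normalization, which gives all libraries the same distribution, left 20 higher and 9 lower calls among the members, against 16.9% higher and 15.3% lower over all genes. Rps20, Rpl39 and Rps15, the most abundant members, lost their calls there.

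The summed CPM of all 77 members was 34714, 34117, 34252 and 35679 in wild type replicates 1 to 4 and 35769, 36948, 37818 and 38205 in the knockout. The genotypes did not overlap, the means being 34690 ± 707 and 37185 ± 1081 CPM (SD, n = 4 each), or 3.47% and 3.72% of each library. The lowest knockout library, replicate 1, lay only just above the highest wild type one, replicate 4. Scaling by median ratio or by TMM, which both allow for large changes in a few abundant genes, brought the genotypes to overlap, at 34956 ± 1559 and 36954 ± 2048 CPM with median ratios. No test was made on the sum.

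The 40S sum was 19223 ± 323 CPM in wild type against 21315 ± 696 CPM in the knockout without overlap. The 60S sum was 15468 ± 421 and 15870 ± 385 CPM, with overlapping libraries. This overlap rested on Rplp1: without it, the 60S sum was 14422, 14146, 14377 and 14939 CPM in wild type and 15277, 15702, 16012 and 16140 CPM in the knockout, with no overlap. The ratio of knockout to wild type means was then 1.091, against 1.026 with Rplp1 and 1.109 for the 40S genes. Without Rplp1, the sum of the remaining 76 members went from 33694 ± 647 to 37098 ± 1080 CPM. Rplp1, the member with the largest called fall, was left out after its values were seen, and this raises the ratio.

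**Figure D2:**
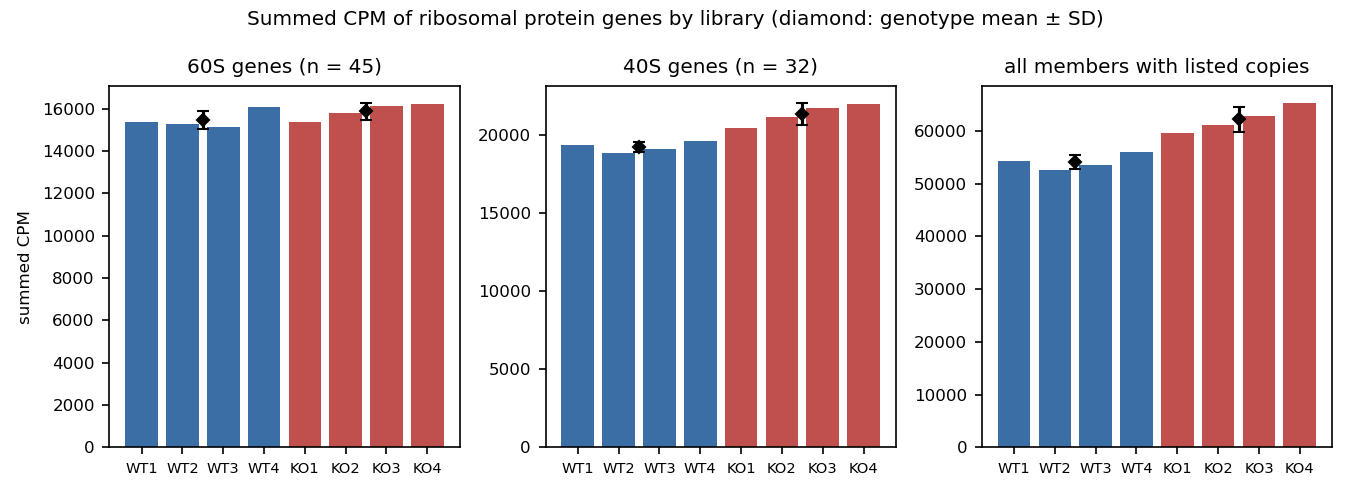
Bars give the summed CPM in each of the 8 libraries for the 60S genes, the 40S genes and all members with their listed copies, and diamonds give the genotype mean with 1 SD. Knockout libraries are all above wild type for the 40S genes and for the sum with copies, and the genotypes overlap for the 60S genes, which they do not without Rplp1.

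The stalk of the 60S subunit, which recruits the elongation factors, is made of the scaffold Rplp0 and the acidic proteins Rplp1 and Rplp2. As single entries these 3 genes moved in 3 ways, though the direction of Rplp1 turned when its copies were summed. Rplp0 was at 688, 675, 668 and 643 CPM in wild type against 659, 606, 665 and 638 CPM in the knockout, with overlap (log2 fold change -0.06 ± 0.054, SE; adjusted p = 0.432). Rplp2 was at 257, 249.5, 254 and 261 CPM in wild type and at 327, 349, 348 and 353 CPM in the knockout. Every knockout library was above every wild type one, and the log2 fold change was 0.43 ± 0.0511 (adjusted p = 0.000171). A processed copy, Rplp2-ps1, matched here by name, was more abundant than Rplp2 itself and rose too, from 1070 ± 82.4 to 1320.2 ± 61.5 CPM (log2 fold change 0.31, adjusted p = 0.00657). With its copies, Rplp2 had a log2 fold change of 0.33 (adjusted p = 0.00316).

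Rplp1 was at 947, 1131, 764 and 1143 CPM in wild type and at 85.8, 87.2, 89.6 and 86.4 CPM in the knockout. The groups lay far apart, with a log2 fold change of -3.49 ± 0.111 (adjusted p = 2.86e-09). Copies of Rplp1 moved the other way or with it. Gm11942, annotated as a processed pseudogene, was at 1.02, 1.72, 1.67 and 19.1 CPM in wild type and at 3869, 3997, 3983 and 4323 CPM in the knockout. Gm17511, a processed pseudogene with 90.6% identity over 85 nt, fell from 1332, 994, 1286 and 1473 CPM to 5.63, 7.91, 7.94 and 8.99 CPM. Gm10073, annotated as protein coding, was at 15.7, 11.8, 15.7 and 21.4 CPM in wild type and at 0.31 CPM or less in the knockout, near the limit of detection.

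Read as a family, Rplp1 did not fall. Rplp1 summed with Gm11942 and Gm10073, its copies at 97% identity or more across 75 nt or more, had a log2 fold change of 2.04 (adjusted p = 4.67e-07). With Gm17511 also added, the sum was 2296, 2139, 2068 and 2657 CPM in wild type against 3961, 4092, 4081 and 4419 CPM in the knockout, a log2 fold change of 0.86 (adjusted p = 3.39e-05). The direction of Rplp1 therefore depends on which entries are summed.

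The first 60 coding bases of Rplp1 and of the copies' matching stretches, from GENCODE M21 transcripts, show how little separates these entries. Capitals mark bases that differ from Rplp1, with positions counted from the A of its start codon.
Rplp1: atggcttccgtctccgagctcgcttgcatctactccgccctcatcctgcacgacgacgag
Gm11942: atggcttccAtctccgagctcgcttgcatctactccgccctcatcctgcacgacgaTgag
Gm17511: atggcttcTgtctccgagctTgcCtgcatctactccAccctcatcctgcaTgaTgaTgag
Gm10073: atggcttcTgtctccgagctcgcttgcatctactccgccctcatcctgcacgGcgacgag
Gm11942 carried 2 differences in this stretch (G10A and C57T), Gm10073 also 2 (C9T and A53G), and Gm17511 carried 7.

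**Figure D3:**
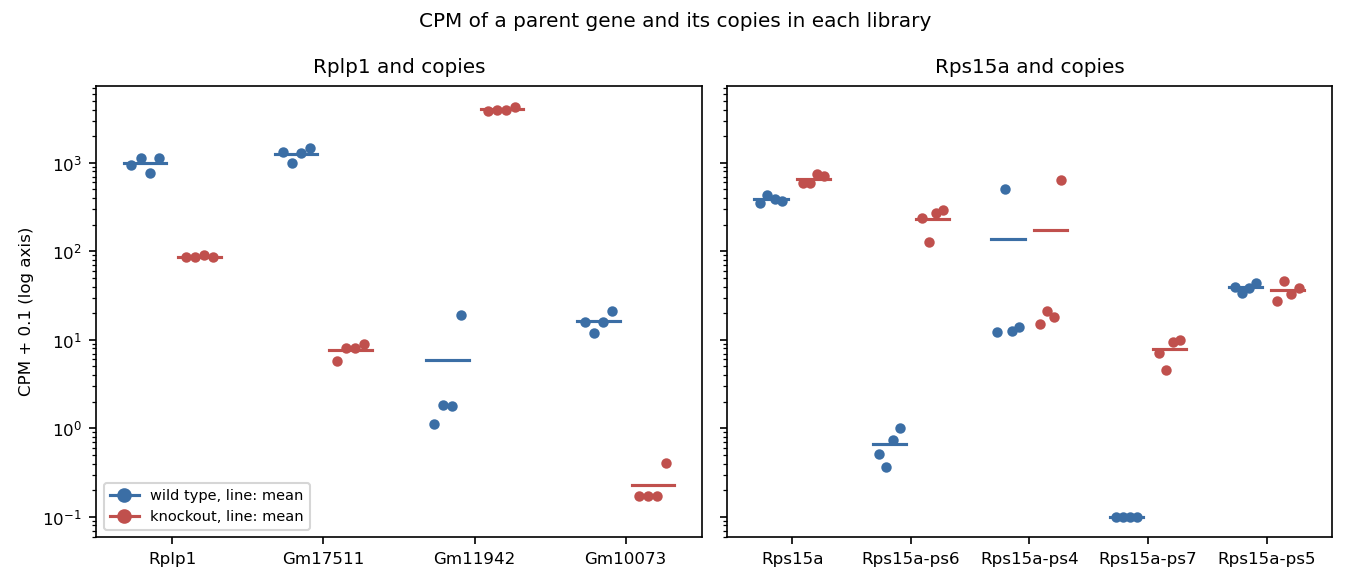
Points are single libraries on a log axis of CPM + 0.1, blue for wild type and red for knockout, with lines at the means, for Rplp1 with 3 copies and Rps15a with 4 copies. Rplp1 and Gm17511 are high in wild type and low in the knockout while Gm11942 does the reverse, and 1 library of each genotype is high for Rps15a-ps4.

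Rps15a, a 40S protein, showed the largest called rise. It was at 354, 436, 391 and 368 CPM in wild type and at 598, 589, 742 and 711 CPM in the knockout. No libraries overlapped, and the log2 fold change was 0.77 ± 0.0912 (adjusted p = 0.000171). Its copy Rps15a-ps6 (listed as Gm11968) was at 0.9 CPM or less in wild type and at 236, 128, 272 and 291 CPM in the knockout. Rps15a-ps7 (listed as Gm14166) had no read in any wild type library and was at 7.09, 4.46, 9.45 and 9.99 CPM in the knockout. Rps15a-ps5 (listed as Gm10196) was similar in both, at 39 ± 4 and 36.3 ± 7.86 CPM.

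Rps15a-ps4 (listed as Gm13253) followed single libraries rather than genotype. It was at 509.9 CPM in wild type replicate 2 and 647 CPM in knockout replicate 4, and between 12.1 and 20.8 CPM in the other 6 libraries. With all 5 listed copies, Rps15a had a log2 fold change of 1.02 (adjusted p = 0.0198). The genotypes overlapped in this sum, wild type replicate 2 (980 CPM) lying above knockout replicates 1 (885 CPM) and 2 (788 CPM). The start of the Rps15a coding sequence is shown with 2 copies that were far higher in the knockout, capitals marking differences from the parent.
Rps15a: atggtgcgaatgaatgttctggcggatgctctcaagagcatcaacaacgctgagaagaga
Rps15a-ps6: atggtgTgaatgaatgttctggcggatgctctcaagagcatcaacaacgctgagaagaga
Rps15a-ps7: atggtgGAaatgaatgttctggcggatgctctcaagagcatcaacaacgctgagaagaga
Rps15a-ps6 differed at 1 base (C7T), which turns the third codon of the parent frame into tga, and Rps15a-ps7 at 2 neighbouring bases (C7G and G8A).

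The next called rises of the 40S subunit were in Rps26 and Rps13. Rps26, which lies at the channel where mRNA leaves the ribosome, was at 318, 302, 312 and 333 CPM in wild type and at 405, 455, 451 and 485 CPM in the knockout. Its groups did not overlap, and the log2 fold change was 0.5 ± 0.0648 (adjusted p = 0.000295). Rps26 has no listed copy. Rps13, a protein that binds the ribosomal RNA of the 40S platform, was at 658, 656, 647 and 680.1 CPM in wild type and at 909, 867, 954 and 874 CPM in the knockout (0.45 ± 0.0537, adjusted p = 0.000181). Knockout values were all above wild type. Rps13 has 4 listed copies, and summed with them its log2 fold change was 0.43 (adjusted p = 0.00124). Its deposited values are identical to those of the snoRNA Snord14a, hosted in the gene, so the same reads stand under both entries. Which of them the reads come from was not tested.

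In the 60S subunit, Rpl35a and Rpl21 rose by as much as Rps13. Rpl35a, a gene mutated in some cases of Diamond-Blackfan anaemia, was at 85.2, 69.2, 76.7 and 93.4 CPM in wild type and at 96.9, 107, 112 and 129 CPM in the knockout (0.45 ± 0.105, adjusted p = 0.00808). The highest wild type library lay just under the lowest knockout one. Rpl21 was at 16.7, 16.4, 16.9 and 15.9 CPM in wild type and at 17.8, 24.4, 24.8 and 24.7 CPM in the knockout (0.45 ± 0.107, adjusted p = 0.00906). Knockout replicate 1 sat close to the wild type values.

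Further called rises of at least 0.35 were found in Rpl24 (0.39), Rpl37a (0.39), Rpl36a (0.38), Rpl34 (0.36), Rpl38 (0.35) and Rps21 (0.42). Rps21 overlapped between genotypes and both Rps21 and Rpl38 lost their calls under 9 alternatives, among them median-ratio and TMM scaling. The identifier of Rpl24 belongs to Zbtb11 in GENCODE M21, so its entry is uncertain.

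The falls apart from Rplp1 were led by Rps3a and Rps3. Rps3a was at 413, 340.4, 351 and 354 CPM in wild type and at 230.3, 240.5, 211 and 198 CPM in the knockout. Each knockout library was well below each wild type one (-0.73 ± 0.0796, adjusted p = 9.39e-05). Rps3, which lines the channel where mRNA enters the 40S subunit, was at 963, 899, 824 and 857 CPM in wild type and at 604, 569.8, 595 and 561 CPM in the knockout (-0.60 ± 0.0616, adjusted p = 5.96e-05). Again no libraries overlapped. Neither gene has a listed copy, and both stayed lower under all 21 alternative settings. Rps3a has a looser copy, Gm9000 (100% identity over 67 nt), which went from 55.9 ± 8.16 to 34.7 ± 7.22 CPM.

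Rpsa, the 40S protein also known as the laminin receptor, was at 576, 527, 499 and 551 CPM in wild type and at 489, 392, 458 and 476 CPM in the knockout (-0.25 ± 0.0767, adjusted p = 0.0295). The highest knockout library lay a little below the lowest wild type one. The call ended when any 1 of wild type replicates 1, 2 and 4 or knockout replicates 2 and 3 was left out (adjusted p = 0.054 to 0.0843).

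Of the 60S proteins, Rpl18 was at 751, 688, 689 and 696 CPM in wild type and at 639, 596, 625 and 584 CPM in the knockout (-0.21 ± 0.0562, adjusted p = 0.0162). The genotypes did not overlap, and without wild type replicate 1 the adjusted p was 0.0541. Rpl6 was at 128, 135, 128 and 119.7 CPM in wild type and at 108.5, 112, 117 and 106 CPM in the knockout (-0.20 ± 0.0591, adjusted p = 0.0243). Its listed copy Gm6136 fell with it, from 169 ± 13.3 to 127 ± 5.89 CPM (-0.41, adjusted p = 0.00136). Leaving out wild type replicate 1, 2 or 3, or knockout replicate 4, ended the call of Rpl6 (adjusted p = 0.0567 to 0.0757). Rpl8, close to the peptidyl transferase centre, was at 993 ± 28.8 CPM in wild type against 872 ± 59.3 CPM in the knockout (-0.19, adjusted p = 0.0375), and lost the call under 8 alternatives.

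**Figure D4:**
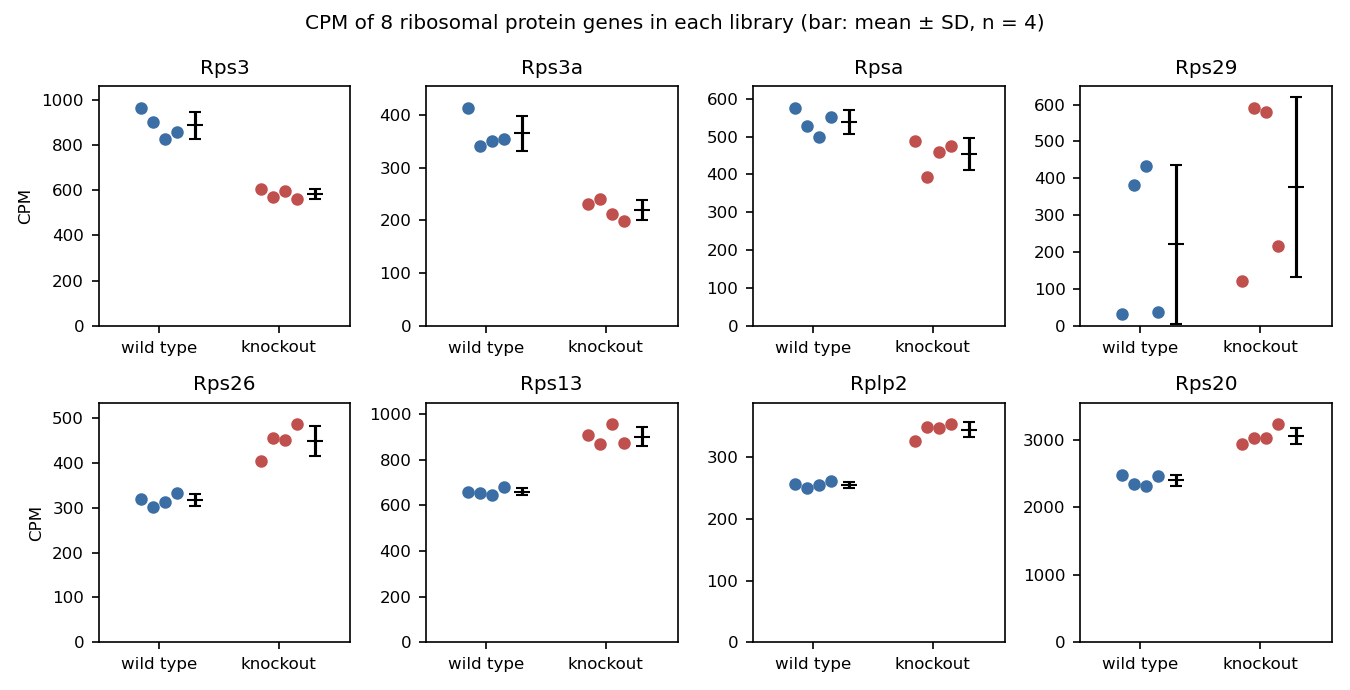
CPM in each library for 8 members, blue for wild type and red for knockout, with the mean and SD beside each group and axes that start at 0. Rps3, Rps3a and Rpsa are lower in all knockout libraries, Rps26, Rps13, Rplp2 and Rps20 are higher, and Rps29 splits within both genotypes.

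The 3 members with the highest mean CPM were Rps20, Rpl39 and Rps15, and all 3 rose. Rps20 was at 2474, 2349.5, 2312 and 2465 CPM in wild type and at 2942, 3023, 3025 and 3228 CPM in the knockout (0.35 ± 0.0586, adjusted p = 0.00147). Its values equal those of the snoRNA entry snoU54. Rpl39, a tiny protein of the exit tunnel, was at 1394, 1397, 1480 and 1449 CPM in wild type and at 1639, 1759.5, 1826 and 1754 CPM in the knockout (0.29 ± 0.0568, adjusted p = 0.00365). Rps15 was at 1390, 1239, 1360.1 and 1491 CPM in wild type and at 1544, 1641, 1605 and 1796 CPM in the knockout (0.27 ± 0.0719, adjusted p = 0.0166). None of the 3 overlapped between genotypes. With quantile normalization Rps20 had a log2 fold change of 0.04 (adjusted p = 0.666), Rpl39 0.17 (adjusted p = 0.0601) and Rps15 0.14 (adjusted p = 0.124), and Rps15 was also not called with TMM (adjusted p = 0.0516) or median-ratio scaling (adjusted p = 0.054).

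Some ribosomal proteins come in paralogous pairs. Rps27 and its paralogue Rps27l, a p53 target, both rose. Rps27 was at 173, 158, 181 and 162 CPM in wild type and at 199, 222, 214 and 208 CPM in the knockout (0.32 ± 0.0622, adjusted p = 0.00301). Rps27l was at 649, 605, 657 and 686 CPM in wild type and at 687, 802, 854 and 991 CPM in the knockout (0.35 ± 0.0966, adjusted p = 0.0185). Knockout replicate 4 was the highest and replicate 1 the lowest, just above wild type replicate 4. Without wild type replicate 2 the adjusted p of Rps27l was 0.0541. Rpl39l, the testis paralogue of Rpl39, had at most 0.58 CPM in any library and was too low to test.

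Rps29 varied within each genotype more than between them; it was singled out after its values were seen. It was at 33.2, 381, 433 and 38.3 CPM in wild type and at 122, 591, 579 and 216 CPM in the knockout. Replicates 2 and 3 were high and replicates 1 and 4 low in both groups, and the genotypes overlapped (1.35 ± 0.845, adjusted p = 0.249). Its near-identical copy Gm7618, aligned over 72 nt, did not split in this way, at 673, 454, 675 and 674 CPM in wild type against 794, 717, 781 and 797 CPM in the knockout. With Gm7618 and 3 other looser copies added, Rps29 went from 910.2 ± 188 to 1239 ± 218 CPM (log2 fold change 0.45, adjusted p = 0.0373). The genotypes overlapped in this sum too, wild type replicate 3 (1181 CPM) lying above knockout replicates 1 (1011.5 CPM) and 4 (1096 CPM).

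The direction of change varied with the length of the coding sequence. Of 9 tested members with less than 300 nt of coding sequence, 7 were higher and 0 lower, with a median log2 fold change of 0.35. From 300 to 399 nt, 10 of 16 were higher and 1, Rplp1, was lower (median 0.31). From 400 to 499 nt, 11 of 21 were higher and 0 lower (median 0.19). From 500 to 699 nt, 1 of 16 was higher and 1, Rpl18, was lower (median 0.05). Of 14 members of 700 nt or more, 0 were higher and 5 were lower, namely Rps3a, Rps3, Rpsa, Rpl6 and Rpl8 (median -0.12). For these counts of 0, edgeR and DESeq2 with the same adjustment also gave 0, and an unadjusted limma p under 0.05 gave 1 higher member of 700 nt or more and 0 lower members in the classes under 300 nt and from 400 to 499 nt.

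Other protein-coding genes showed a milder gradient at the short end. Their share called higher was 41.2% of 279 genes under 300 nt, 34% of 420 genes from 300 to 399 nt, 20.8% of 472 genes from 400 to 499 nt, 16.9% of 1198 genes from 500 to 699 nt and 14.6% of 10165 longer genes. The share of members called higher was 77.8%, 62.5%, 52.4%, 6.25% and 0% in the same classes. The share of other genes called lower was 9.68%, 11.7%, 15.3%, 17.9% and 14.4% from the shortest to the longest class, against 0%, 6.25%, 0%, 6.25% and 35.7% of the members. Spearman's rank correlation between coding length and log2 fold change was -0.72 over 76 members and -0.02 over 12534 other protein-coding genes. These are descriptions across genes, which share the same libraries and are not independent replicates.

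**Figure D5:**
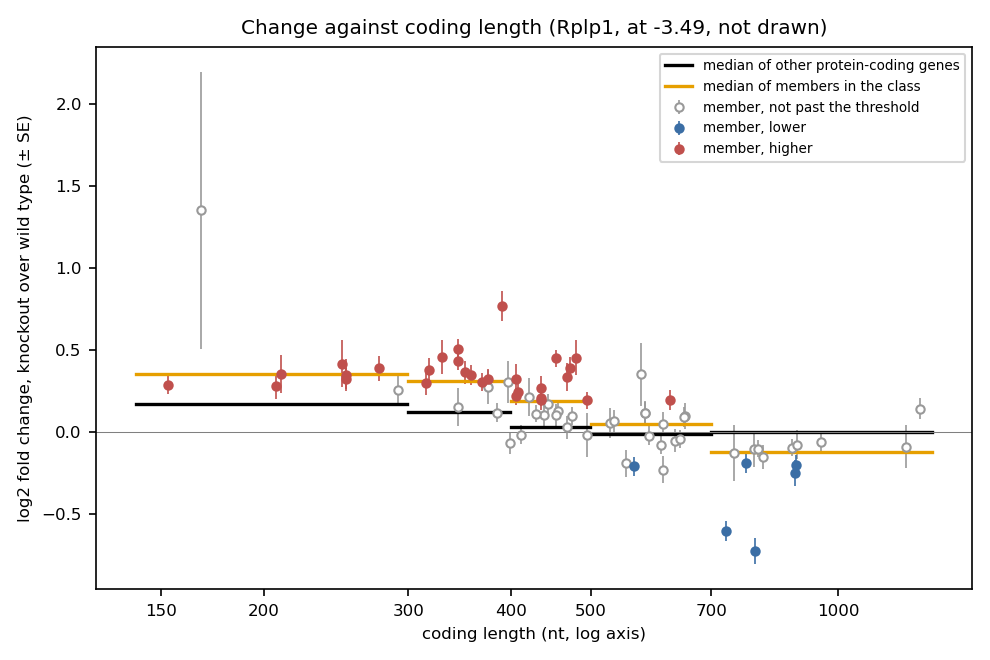
Each point is a tested member other than Rplp1, with its coding length on a log axis and its log2 fold change with 1 SE. Short horizontal lines give the medians of members and of other protein-coding genes in each of 5 length classes. Members fall from a median of 0.35 in the shortest class to -0.12 in the longest, and other genes from 0.17 to 0.

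The same axis appeared between libraries of one genotype. For each library, the deviation of the 76 members from their genotype mean was set against coding length. The rank correlation was 0.57 in knockout replicate 1 and -0.48 in knockout replicate 4, and 0.45 in wild type replicate 2 and -0.37 in wild type replicate 4. In the remaining libraries it was 0.04 (wild type replicate 1), -0.24 (wild type replicate 3), 0.2 (knockout replicate 2) and 0.02 (knockout replicate 3). Rps6, the target of S6 kinase and a long member, was at 357, 475, 387 and 291 CPM in wild type and at 369.8, 402, 377 and 239 CPM in the knockout, lowest in replicate 4 of both. Rps12, a short one, was at 1109, 805, 1116 and 1228 CPM in wild type and at 1228, 1187, 1224 and 1592 CPM in the knockout, highest in replicate 4 of both. Neither Rps6 nor Rps12 was called (Rps6 adjusted p = 0.602, Rps12 adjusted p = 0.0985). Both were picked as examples of this axis, and the values of Rps12 equal those of the snoRNA entry SNORD101. The rank correlation between length and the genotype difference stayed between -0.81 and -0.65 over 21 alternative settings, each library left out in turn included. Depth moved with this axis in the knockout and in part in wild type. Within the knockout, the rank correlation went down with the library total, from replicate 1 (15096188 reads) to replicate 4 (13014134 reads), and in wild type the deepest library, replicate 2 (18593913 reads), had the highest value and the shallowest, replicate 4 (15598154 reads), the lowest. Between them the order broke, since replicate 3 (17319543 reads) was deeper than replicate 1 (16719661 reads) but had the lower rank correlation. As all knockout libraries were shallower than all wild type ones, depth and genotype cannot be told apart here.

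Copies held a large part of the family's reads. Near-identical copies, 115 entries in all, were found for 46 members, and the most for 1 member was 6. In wild type, 21 members held less than 50% of the CPM of their own family, and in the knockout 22 did. Rpl37a was at 48.6 ± 2.94 CPM in wild type while its copy Gm4149 was at 2431 ± 267 CPM and rose to 2988 ± 284 CPM (0.30, adjusted p = 0.029). Rpl3 was at 17.5 ± 2.93 CPM while Rpl3-ps1 fell from 508 ± 16.5 to 394 ± 49.2 CPM (-0.37, adjusted p = 0.00615). How the mapping divided reads between parents and copies was not stated in the labels or headers, and the level of a member with copies is uncertain.

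Among 84 copies tested, 26 were higher and 6 lower, beside 16.6% higher and 14.3% lower of all genes. Members without a listed copy gave 12 higher (40%) and 4 lower (13.3%) of 30, and members with one gave 17 (37%) and 3 (6.52%) of 46. The share called higher was above that of all genes in both, and the share called lower was not. Summing each member with its copies gave 31 higher and 9 lower, against 16.6% higher and 14.4% lower of all genes in that fit. The sum over all members with copies rose from 54090 ± 1368 to 62177 ± 2400 CPM without overlap, and Rplp1's family carried much of this: without it the sum went from 53072 ± 1323 to 58047 ± 2219 CPM.

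Start sites are where CAGE reads begin, and the annotated starts of 13 members described above are shown with their tracts. RefSeq gave promoters for 58 members. In the 30 bases around the start (15 on each side), a C followed by at least 4 bases that are each C or T occurred on the transcribed strand in 59.4% of 69 member entries and in 36.3% of 32782 others. Such a run began exactly at the annotated start in 18.8% and 2.5%. By call, 51.7% of entries of higher members, 40% of lower ones (5 entries) and 67.6% of the rest held a tract in the window. A tract began exactly at the start in 27.6%, 0% and 14.7% of these entries, so the order by call differed between the 2 measures. The windows below are from GRCm38.p6, with tracts in capitals and the annotated start at base 16. They come from members called higher (the first 7), lower (the next 5) and not called (Rplp0).
Rplp2 (chr7:141447636-141447665, plus strand): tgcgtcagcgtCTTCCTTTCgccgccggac
Rps15a (chr7:118116133-118116162, minus strand): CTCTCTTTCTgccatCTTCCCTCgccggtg
Rps26 (chr10:128626492-128626521, minus strand): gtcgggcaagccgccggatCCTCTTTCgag
Rps13 (chr7:116334176-116334205, minus strand): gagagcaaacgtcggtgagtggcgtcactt
Rpl39 (chrX:37085208-37085237, minus strand): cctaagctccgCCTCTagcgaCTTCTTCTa
Rps15 (chr10:80292416-80292445, plus strand): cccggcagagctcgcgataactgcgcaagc
Rps27 (chr3:90213634-90213663, minus strand): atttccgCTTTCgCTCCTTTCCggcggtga
Rpl18 (chr7:45718056-45718085, plus strand): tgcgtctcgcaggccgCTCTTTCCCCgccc
Rpl6 (chr5:121204486-121204515, plus strand): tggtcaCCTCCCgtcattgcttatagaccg
Rps3 (chr7:99483695-99483724, minus strand): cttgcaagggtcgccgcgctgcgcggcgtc
Rps3a (chr3:86142654-86142683, minus strand): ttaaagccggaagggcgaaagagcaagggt
Rpsa (chr9:120127751-120127780, plus strand): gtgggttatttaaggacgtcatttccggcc
Rplp0 (chr5:115559452-115559481, plus strand): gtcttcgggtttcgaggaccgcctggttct
Rps13, Rps15, Rps3, Rps3a, Rpsa and Rplp0 hold no such run in these letters, which says nothing of the starts used in these mice.

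Of ribosomal protein genes outside the naming rule, Fau (0.28, adjusted p = 0.0113) and Rpl22l1 (0.40, adjusted p = 0.0327) were higher, and Rpl7l1 was at 102 ± 12.1 and 90.1 ± 6.39 CPM without a call. Among 27 TOP mRNA genes outside the ribosome, 5 were higher and 9 lower, with a median log2 fold change of -0.04. The share called higher was near that of all genes (16.6%), and the share called lower was above it (14.3%). Eef1a1, the factor that delivers aminoacyl-tRNA, fell from 192 ± 6.16 to 151 ± 4.84 CPM (-0.34, adjusted p = 0.000966). Eef2, the translocation factor, fell from 306 ± 6.46 to 255 ± 10.9 CPM (-0.26, adjusted p = 0.00419). Gas5, a noncoding TOP host of snoRNAs, fell from 678 ± 44.1 to 304 ± 54.3 CPM (-1.17, adjusted p = 2.55e-05). Eif3f rose from 365 ± 7.87 to 431 ± 14.9 CPM (0.24, adjusted p = 0.00535).

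Lists of the wider translation machinery had medians below 0. Their counts stand beside 16.6% higher and 14.3% lower of all genes, and several are near or under these shares. Of 36 initiation factors tested, 5 were higher and 8 lower (median -0.08), with Eif1 at 56.1 ± 2.44 and 74.9 ± 3.24 CPM (0.41, adjusted p = 0.00071). Of 13 elongation and release factors, 4 were lower (median -0.17). Of 44 factors of 60S assembly, 2 were higher and 9 lower (median -0.08), with the rRNA methyltransferase Fbl down from 31.7 ± 1.97 to 19.4 ± 1.24 CPM (-0.69, adjusted p = 9.63e-05) and Pes1 down from 32.9 ± 1.25 to 23.5 ± 2.11 CPM (-0.48, adjusted p = 0.00122). Of 41 factors of 40S assembly, 3 were higher and 5 lower (median -0.02).

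Of 14 genes of RNA polymerase I and its factors, 2 were higher and 1 lower (median -0.07), the lower one being Taf1b, which went from 20.9 ± 2.41 to 2.66 ± 0.34 CPM (-2.76, adjusted p = 3.09e-08). Of 33 regulators around mTORC1, LARP1 and MYC, 1 was higher and 5 lower (median -0.06). The counts of both lists stand beside the same 16.6% higher and 14.3% lower of all genes. Larp1, the repressor of TOP mRNA translation, fell from 19.2 ± 0.99 to 12.1 ± 2.7 CPM (-0.67, adjusted p = 0.00314).

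The summed levels of markers of other cells overlapped between the genotypes in all 5 lists, and their counts of calls stand beside 16.6% higher and 14.3% lower of all genes. B cell markers summed to 178 to 240.5 CPM in wild type against 70.2 to 191 CPM in the knockout, and 7 of 12 were lower. Their overlap rested on knockout replicate 1, at 191.3 CPM, with 105.7, 87.7 and 70.2 CPM in replicates 2 to 4. T and NK cell markers summed to 96.6 to 112 and 70.3 to 101 CPM, with 3 of 13 lower. Here too only knockout replicate 1 (101 CPM) lay in the wild type range, with 88.8, 74.5 and 70.3 CPM in replicates 2 to 4. Red cell genes summed to 8887 to 17430 and 7558 to 11409 CPM, with 5 of 8 lower and 1 higher. Cardiac muscle genes, which the lung's pulmonary veins carry, summed to 369 to 579 and 347 to 543 CPM, with 2 of 8 higher and 1 lower. Markers of dividing cells summed to 98 to 105 and 84.5 to 203 CPM, with 6 of 14 higher and 2 lower. For dividing cells, the sum was 84.5 CPM in knockout replicate 1, under the wild type range, and 192.5, 203 and 199 CPM in replicates 2 to 4. Ube2c, a ubiquitin-conjugating enzyme of mitosis, was at 8.83 to 12.5 CPM in wild type, at 10.3 CPM in knockout replicate 1 and at 48.3, 51.1 and 53.7 CPM in the others. The same library had the lowest summed CPM of ribosomal protein genes in the knockout, and without it 30 members were higher and 7 lower. No gene of these lists was at 0 in all libraries. Their part in the changes of the ribosomal protein genes was not tested.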

How the data were processed

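Lung CAGE libraries of 4 wild type and 4 knockout mice were used. The authors deposited gene values as CPM; per the submitters' processing notes the build was mm9 and BWA 0.7.12-r1039, HISAT2 2.0.5 and edgeR were used, with no role or order stated. Total RNA had an integrity number above 7.0 and libraries were read as single ends of 75 nt, per the labels' protocols. Every deposited CPM value was a whole multiple of 1 read (within 0.1 reads; 100% of values in each library), so read counts could be recovered.

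Genes that reached 1 CPM in 4 or more libraries (14065 of 15728) were tested with limma 3.58.1 (variance trend, genotype only) on log2(CPM + 0.5), with Benjamini-Hochberg adjustment over all of them and a threshold of 0.05. Fold changes are on that scale and understate low genes. Alternatives were other pseudocounts, filters and scalings, quantile normalization, edgeR 4.0.16 and DESeq2 1.42.0 on the recovered reads, a replicate block, sums with copies, and each library left out. The looser copies, the members without copies, the sums without Rplp1 and the removal of repeated entries were chosen after seeing the data. The members and lists were chosen with earlier results of these data known. Values in every library are given for the stalk genes, Rpsa, paralogue pairs, the 6 largest called rises and falls and the 3 most abundant members. Rps29, Rps6 and Rps12, also given, fall outside this rule and were picked for their pattern. Other genes are up to 4 called per list and direction by smallest adjusted p, and copies whose group means differ by at least 5 CPM.

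Copies were entries whose GENCODE M21 transcript matched the first 200 nt of a member's transcript at 97% identity or more over at least 75 nt (blastn 2.17.0), and looser copies 90% over 50 nt. GENCODE M21 is on GRCm38, so it was used for names, coding lengths (principal transcript) and sequences only. Names were matched by identifier for 15065 entries and by symbol for 348. Values of 9 members are identical to those of another entry, mostly a hosted snoRNA. The limma step was tested on simulated data, where it missed part of the smallest changes simulated. Those were larger than the median called rise (1.26-fold) and fall (1.19-fold) of the members, so changes of that size were not tested. Promoters are from RefSeq. Results for some genes are not reported here.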

Additional observations from a re-analysis of the deposited data

Results flagged for a closer look

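In a group of 4, a value counted as standing apart when its gap to the nearest other took a larger part of the group's range than Dixon's 95% critical value, and chance gives this in about 1 group in 20. Over 44 groups of named members and sums, 2 did so. Rpl21 in knockout replicate 1 was at 17.75 CPM against 24.41 to 24.77 CPM in the other knockout libraries. Rpl18 in wild type replicate 1 was at 751.45 CPM against 688.02 to 696.36 CPM in the other wild type libraries.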

How the results depend on the processing

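The count of ribosomal protein genes called higher (29) stayed between 20 and 32 over the settings that kept all members and between 23 and 30 with a library left out; that called lower (7) lay between 6 and 9 and between 3 and 7. Members without listed copies alone gave 12 higher and 4 lower calls. The ratio of summed CPM, 1.072, became 1.057 with median-ratio and 1.056 with TMM scaling, where the genotypes overlapped. It was 1.15 with listed copies and 1.121 with looser ones. Without Rplp1 it was 1.101, and 1.094 when the other members were summed with listed copies. The ratio of the 60S genes, 1.026, became 1.091 without Rplp1. Leaving out Rplp1 was chosen after seeing the data. Rplp1 turned to a log2 fold change of 2.04 with listed copies and 0.86 with looser ones. Whether mice of the same replicate number share a batch is not known. Over all genes tested, same-numbered deviations correlated at 0.043, 0.026, -0.003 and 0.065, which does not settle it. A fit with the replicate block gave 32 higher and 6 lower calls. Under the block Rps29 had an adjusted p of 0.02 and Rps12 one of 0.0261, both higher. Depth limits Rpl39l, which reached 0.58 CPM at most, and parents whose reads are shared with copies. The edgeR fit on recovered reads gave 26 higher and 7 lower members, DESeq2 29 and 8. No scaling moved the median log2 fold change of all genes by over 0.1. The median of the members, 0.13, was 0.11 with median-ratio or TMM scaling and 0.08 with quantile normalization.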
